A study of Mus musculus with 24 samples.

Results

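The genes described here are 6 early cytokine and chemokine genes of T cells, namely Ccl3, Ccl4, Xcl1, Tnf, Lta and Il2, taken by symbol with every probe set that listed only that symbol. Each had 1 such probe set, so they were 6 of 18193 genes tested and 6 of the 45037 probe sets that were not controls. A further probe set listed Il2 together with Ntan1 and was left unassigned. Signals are log2 values on Affymetrix Mouse430_2 arrays, on which a difference of 1 is a doubling of signal.

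CD4+CD8+ double positive (DP) thymocytes are the immature T cells that undergo selection in the thymus according to how strongly their T cell receptor is engaged. They came from male 8-week-old Black 6J mice of 4 genotypes, named Elk/Sap KO, Elk KO, Sap KO and wild-type. The cells of each mouse were sorted with antibodies to CD4 and CD8, rested for 2 hours, and then spun onto plates coated with anti-CD3 or onto uncoated plates for 30 min. Every genotype had 3 mice and every mouse gave a stimulated and an untreated array, which makes 8 groups of 3 arrays and 24 arrays from 12 mice. Elk and Sap belong to the ternary complex factors, ETS-domain proteins that bind DNA with serum response factor and activate immediate early genes. How the knockout alleles were made was not given in the sources used here, and the wild-type mice are the control for all 3 knockouts.

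Anti-CD3 crosslinks the T cell receptor complex and starts calcium, MAP kinase and NF-κB signalling, which in mature T cells switches on cytokine genes quickly. Ccl3 and Ccl4 encode the inflammatory chemokines MIP-1α and MIP-1β, and Xcl1 encodes lymphotactin, which attracts cross-presenting dendritic cells. Tnf and Lta encode ligands of the tumour necrosis factor family, and Il2 encodes the T cell growth factor interleukin 2. Ccl3 and Ccl4 lie side by side on chromosome 11, and Tnf and Lta on chromosome 17, with 0 protein-coding genes between the partners of either pair. Xcl1 lies on chromosome 1 and Il2 on chromosome 3.

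ETS-domain proteins bind DNA around the letters GGAA, so the 250 bases before the annotated start are shown for Ccl3 and Tnf, which rose in the mean response, and for Il2, which was not called. The sequences are RefSeq's on GRCm38.p6, read 5′ to 3′ on the minus strand, at chr11:83649379-83649628 for Ccl3, chr17:35202008-35202257 for Tnf and chr3:37125955-37126204 for Il2. Capitals mark GGAA on either strand, which reads TTCC where it lies on the other one. Of the 6 genes, 5 were in the RefSeq promoter table. Ccl4 was the missing one, so the searches below do not cover it.
Ccl3: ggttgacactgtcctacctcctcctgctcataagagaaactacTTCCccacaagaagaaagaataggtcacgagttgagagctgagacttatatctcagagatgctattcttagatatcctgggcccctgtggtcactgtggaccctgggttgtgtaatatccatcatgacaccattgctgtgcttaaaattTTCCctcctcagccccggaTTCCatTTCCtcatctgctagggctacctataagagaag
Tnf: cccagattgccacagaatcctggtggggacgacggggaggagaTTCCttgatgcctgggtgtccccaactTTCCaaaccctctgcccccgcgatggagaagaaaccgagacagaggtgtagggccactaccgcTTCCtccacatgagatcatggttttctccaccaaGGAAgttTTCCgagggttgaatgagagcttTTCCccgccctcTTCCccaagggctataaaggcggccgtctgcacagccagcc
Il2: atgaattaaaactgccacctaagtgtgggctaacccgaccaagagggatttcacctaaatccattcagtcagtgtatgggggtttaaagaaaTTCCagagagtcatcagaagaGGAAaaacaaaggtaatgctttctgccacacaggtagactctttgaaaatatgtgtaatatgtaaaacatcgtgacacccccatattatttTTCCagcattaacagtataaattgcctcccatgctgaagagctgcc

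The Tnf window held 7 of these 4-letter cores, a number that 3.82% of 32841 mouse promoter windows of the same length reach. Ccl3 held 4 and Il2 held 3, which 33.4% and 54.7% of windows reach, so only the Tnf count stood in the upper tail. Lta held 6 (8.69% of windows) and Xcl1 held 4. Searched on either strand, the TATA box letters TATAAA lay 29 bases before the start of Tnf, 31 before that of Il2 and 167 before that of Lta. Of all windows 12.4% hold them somewhere. Searches of both strands for the AP-1 letters TGANTCA (6.75% of windows), the Egr letters GCGNGGGCG (4.70%), the kB consensus (3.90%) and the CArG box of serum response factor (1.47%) found no match in any of the 5 windows. These matches describe letters in short windows and not sites bound in these cells.

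Checks of the arrays bear on several values below. The Elk4 probe set, which is Sap in the usual nomenclature, read 6.13 to 7.85 in arrays from mice lacking Sap and 10.25 to 10.99 in the other arrays, whereas Elk1 read 4.03 to 4.74 in arrays lacking Elk and 4.69 to 5.23 in the others, close to background. Xist, which male cells do not express, read 4.07 to 5.07, and 5.07 was taken as the top of the background range; it is not a strict limit, since 5 of 14 genes of other organs also exceeded it. The untreated array of Elk/Sap KO mouse 2 differed from all others, as its relative log expression had an interquartile range of 0.826, against at most 0.363 elsewhere. The 3′ minus 5′ signal of the Actb control was 0.545 to 1.05 in Elk/Sap KO arrays and 0.381 to 0.654 in Elk KO arrays, against 0.166 to 0.240 in Sap KO arrays and 0.151 to 0.359 in wild-type arrays. The dap control transcripts read 8.81 to 9.66 in every array lacking Elk and in 1 mouse each of Sap KO (mouse 2) and wild-type (mouse 3), and 6.00 to 6.60 in the other 4 mice.

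The first comparison asked whether the 6 genes changed within 30 min of anti-CD3. The data show a strong and general rise of Ccl4, smaller rises of Tnf and Ccl3, and no call for Xcl1, Lta and Il2. In the mean response over the 4 genotypes, 3 of the 6 genes rose and none fell (limma, Benjamini-Hochberg adjusted p under 0.05 over all genes), while 1.45% of all genes were called. Ccl4 had a mean response of 1.62 ± 0.09 on the log2 scale (SE, adjusted p = 7.65e-11), Ccl3 of 0.71 ± 0.10 (adjusted p = 0.00011) and Tnf of 0.67 ± 0.12 (adjusted p = 0.00144). The median of the 6 mean responses was 0.43, beside 0.007 over all genes tested.

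Ccl4, whose product attracts T cells and monocytes, gave signals in mice 1, 2 and 3 of 6.12, 6.54 and 6.59 in stimulated Elk/Sap KO cells, against 4.98, 5.41 and 4.75 in untreated Elk/Sap KO cells. In Elk KO cells it gave 6.36, 6.51 and 6.00 after anti-CD3 and 5.001, 4.89 and 4.89 without it. All stimulated values of these 2 genotypes lay above all of their untreated values. In Sap KO cells it gave 7.36, 7.04 and 7.36 after anti-CD3 and 5.06, 5.49 and 5.32 without it. Wild-type cells had 6.73, 7.31 and 6.70 after anti-CD3 and 5.12, 5.26 and 5.03 without it. The stimulated and untreated groups were again apart, and the signal was higher in the stimulated array of 12 of 12 mice (1.08% of all genes).

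Ccl4 was called in all 4 genotypes. Its response was 1.37 ± 0.19 in Elk/Sap KO cells (SE, adjusted p = 0.00029), at least 2.59-fold because the untreated mean lay in the background range. It was 1.37 ± 0.19 in Elk KO cells (adjusted p = 0.000429), at least 2.58-fold for the same reason. The response was 1.96 ± 0.19 in Sap KO cells (adjusted p = 1.5e-06, 3.89-fold) and 1.77 ± 0.19 in wild-type cells (adjusted p = 6.81e-06, 3.42-fold). Their untreated means, 5.29 and 5.14, lay only just above the background range, so these folds may be lower bounds too. Among the 6 genes 1, 1, 2 and 1 were called in Elk/Sap KO, Elk KO, Sap KO and wild-type cells, where 0.346%, 0.203%, 0.363% and 0.352% of all genes were called. With only its 6 arrays in the fit the Elk/Sap KO call was lost (adjusted p = 0.304). When untreated Elk/Sap KO mouse 2 was left out the response was 1.55 (adjusted p = 3.82e-05).

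**Figure D1:**
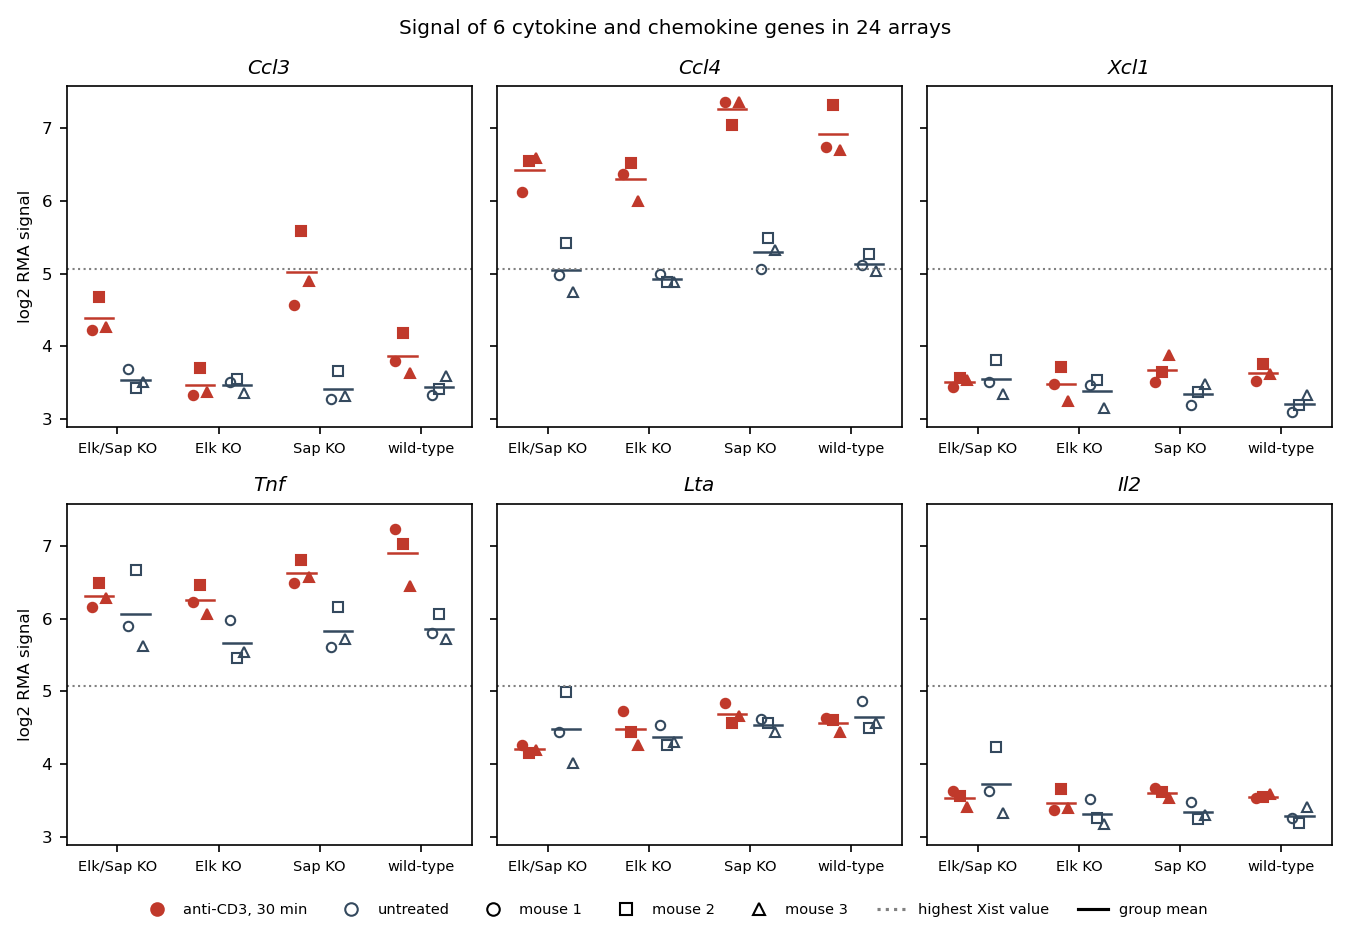
Log2 signal of the 6 genes in each of the 24 arrays (vertical axis), by genotype (horizontal axis), with stimulated cells as filled red symbols to the left of untreated cells as open symbols; symbol shapes stand for mice, short lines for means of 3 arrays, and the dotted line for the highest Xist value of 5.07. Ccl4 separates by treatment in every genotype, Ccl3 is highest in stimulated Sap KO cells, and Xcl1, Lta and Il2 stay under the dotted line.

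Ccl3, the neighbour of Ccl4 whose product attracts inflammatory cells, was called in 1 genotype. Its signal was 4.22, 4.67 and 4.26 in stimulated Elk/Sap KO cells against 3.70, 3.43 and 3.51 in untreated ones, and 3.34, 3.71 and 3.38 in stimulated Elk KO cells against 3.52, 3.55 and 3.36 in untreated ones. Stimulated Elk/Sap KO values lay above the untreated ones, while the Elk KO groups overlapped. Sap KO cells had 4.57, 5.59 and 4.90 after anti-CD3 and 3.29, 3.66 and 3.32 without it. In wild-type cells the values were 3.80, 4.18 and 3.63 after anti-CD3 and 3.33, 3.42 and 3.60 without it. Both of these genotypes separated by treatment, in wild-type by a margin of 0.03 in mouse 3. Only 1 of the 24 values, that of stimulated Sap KO mouse 2, lay above the background range, so no fold is given for Ccl3.

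The Ccl3 response was called in Sap KO cells, at 1.60 ± 0.20 (adjusted p = 7.81e-05). It was 0.84 ± 0.20 in Elk/Sap KO cells (adjusted p = 0.106), 0.42 ± 0.20 in wild-type cells and -0.0030 ± 0.20 in Elk KO cells, none of them called. The Elk/Sap KO value was called with array quality weights (adjusted p = 0.0134) and when stimulated Sap KO mouse 2 was left out of the fit (adjusted p = 0.0208). Within mice, as numbered in the labels, Ccl3 was higher after anti-CD3 in 11 of 12.

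Tnf, the ligand of TNFR1 and TNFR2, had signals of 6.16, 6.49 and 6.28 in stimulated Elk/Sap KO cells against 5.89, 6.67 and 5.62 in untreated Elk/Sap KO cells. Elk KO cells had 6.23, 6.46 and 6.07 after anti-CD3 and 5.98, 5.47 and 5.55 without it. The Elk/Sap KO groups overlapped through the untreated array of mouse 2, and the Elk KO groups did not overlap. Sap KO cells had 6.49, 6.80 and 6.57 after anti-CD3 and 5.61, 6.16 and 5.73 without it, and wild-type cells had 7.23, 7.02 and 6.44 after anti-CD3 and 5.81, 6.07 and 5.72 without it. Stimulated values were above untreated ones in both.

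No single genotype reached the threshold for Tnf in the fit of group means. The response was 1.04 ± 0.23 in wild-type cells (SE, adjusted p = 0.0541, 2.05-fold), and with the mouse as a block, which pairs the 2 arrays of an animal, it was called (adjusted p = 0.0234). It was also called without stimulated wild-type mouse 3 (1.26, adjusted p = 0.0155), and without untreated Elk/Sap KO mouse 2 or 3 (adjusted p = 0.00476 and 0.0259). The Tnf response was 0.79 ± 0.23 in Sap KO cells (adjusted p = 0.405, and 0.0277 with only its 6 arrays in the fit), 0.59 ± 0.23 in Elk KO cells and 0.25 ± 0.23 in Elk/Sap KO cells (adjusted p = 0.725). Without the untreated array of Elk/Sap KO mouse 2 the Elk/Sap KO response was 0.55 (adjusted p = 0.807) and the mean response over the genotypes was 0.74 (adjusted p = 2.45e-05). Tnf was higher after anti-CD3 in 11 of 12 mice, all but Elk/Sap KO mouse 2.

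**Figure D2:**
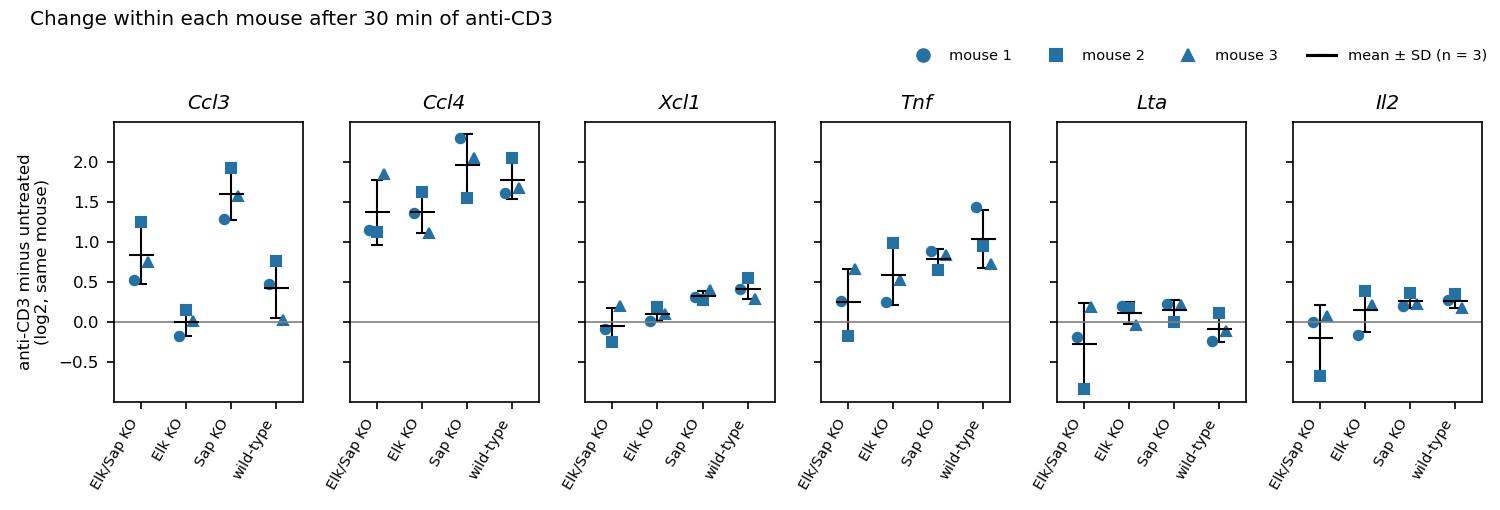
Change in log2 signal from the untreated to the stimulated array of the same mouse (vertical axis) for the 6 genes, by genotype; symbols are mice, bars are mean ± SD over 3 mice and the grey line is no change. All 12 Ccl4 changes lie between 1.12 and 2.29, and Ccl3 changes run between -0.18 in an Elk KO mouse and 1.92 in a Sap KO mouse. The lowest Xcl1, Tnf, Lta and Il2 changes belong to Elk/Sap KO mouse 2.

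Xcl1, Lta and Il2 had no group mean above the background range. Xcl1 signals ran between 3.26 and 3.89 in the 12 stimulated arrays and between 3.10 and 3.82 in the 12 untreated ones. Lta ran between 4.16 and 4.85 after anti-CD3 and between 4.02 and 4.99 without it, and Il2 between 3.37 and 3.68 after anti-CD3 and between 3.18 and 4.24 without it. These ranges overlapped for all 3 genes. The highest untreated values of Xcl1, Lta and Il2 all came from Elk/Sap KO mouse 2.

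Mean responses of these 3 genes were 0.20 ± 0.07 for Xcl1 (adjusted p = 0.355), 0.12 ± 0.08 for Il2 (adjusted p = 0.958) and -0.02 ± 0.09 for Lta. The interval of the Xcl1 response was 0.05 to 0.36, and the change was positive in 10 of 12 mice. For Il2 the interval was -0.05 to 0.29, with 10 of 12 mice positive, and for Lta it was -0.21 to 0.16, with 7 of 12. Xcl1 was called with array quality weights (adjusted p = 0.0305), where 1091 of all genes were called in the mean response, against 264 in the main fit. An mRNA near the background of its probe set can change by more than its signal does, so these intervals bound the signal and not the transcript.

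Counts of non-overlap need the same background. Of the 6 genes 2 separated by treatment without overlap in Elk/Sap KO cells, 2 in Elk KO cells, 5 in Sap KO cells and 5 in wild-type cells, each time with the stimulated group higher. Over all genes 3.11%, 6.39%, 6.24% and 6.47% separated with the stimulated group higher in those genotypes. In either direction the shares were 4.78%, 10.9%, 12.5% and 11.1%. In Sap KO and wild-type cells the 5 were all of the genes except Lta.

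The second comparison asked whether the genotypes differed within the same state of the cells. In untreated cells 0 of the 6 genes were called by limma in Elk/Sap KO, Elk KO or Sap KO against wild-type, where 3.44%, 0.0989% and 0.0824% of all genes were called. At an unadjusted p under 0.05 the counts were 2, 0 and 0, beside 23.4%, 7.21% and 1.65% of all genes, the 2 being Xcl1 (0.35 ± 0.15) and Il2 (0.45 ± 0.16), both with positive differences. These differences were 0.22 and 0.20 without untreated Elk/Sap KO mouse 2, and both were called without untreated Elk/Sap KO mouse 3, at 0.45 (adjusted p = 0.0406) and 0.65 (adjusted p = 0.00755). Without mouse 3, however, 4927 of 18193 genes were called in this comparison, against 626 in the main fit. Untreated Ccl4 differed from wild-type by -0.09 in Elk/Sap KO, -0.21 in Elk KO and 0.15 in Sap KO cells, with a standard error of 0.19 each. All Ccl4 values of untreated Elk KO cells lay below those of untreated wild-type cells, as for 11.1% of all genes (18.3% in either direction).

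In stimulated cells Ccl3 was the only one of the 6 called against wild-type, and it was called in Sap KO cells alone. The Sap KO values of 4.57, 5.59 and 4.90 all lay above the wild-type values of 3.80, 4.18 and 3.63, a difference of 1.15 ± 0.20 (adjusted p = 0.017, 0.0715% of all genes called and 10.8% without overlap). The call was lost with only the 6 arrays of these groups in the fit (adjusted p = 0.408). Leaving out stimulated wild-type mouse 1 or 3, or stimulated Sap KO mouse 2 or 3, also ended it (adjusted p = 0.114, 0.19, 0.147 and 0.0734), while the difference stayed between 0.86 and 1.21. The response of Sap KO minus that of wild-type was 1.17 ± 0.28 for Ccl3 and was not called.

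Ccl4 and Tnf had lower means in stimulated cells lacking Elk than in wild-type cells, without a call. Ccl4 differed from wild-type by -0.49 ± 0.19 in Elk/Sap KO cells (adjusted p = 0.121) and by -0.62 ± 0.19 in Elk KO cells (adjusted p = 0.178). Its stimulated values in both lay below the wild-type values, a separation that 24.8% of all genes showed for Elk/Sap KO and 19% for Elk KO in either direction. Tnf differed by -0.59 ± 0.23 in Elk/Sap KO (adjusted p = 0.132, and 0.041 without untreated Elk/Sap KO mouse 2) and by -0.65 ± 0.23 in Elk KO cells (adjusted p = 0.264), and its value in wild-type mouse 3, 6.44, lay inside the knockout ranges. Leaving out that untreated array raised calls over all genes in stimulated Elk/Sap KO against wild-type from 1242 to 2344. Ccl3 differed by 0.52 ± 0.20 in Elk/Sap KO (adjusted p = 0.13), with all 3 values above wild-type, and by -0.40 ± 0.20 in Elk KO cells (adjusted p = 0.473). limma thus called 0 of the 6 genes in stimulated Elk/Sap KO cells and 0 in stimulated Elk KO cells, where 6.83% and 0.22% of all genes were called. At an unadjusted p under 0.05 there were 3 in Elk/Sap KO cells, a positive difference of Ccl3 and negative ones of Ccl4 and Tnf, and 2 in Elk KO cells, negative ones of Ccl4 and Tnf, where 21.5% and 11.4% of all genes passed.

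Tests of the responses themselves found no difference between genotypes. limma called 0 of the 6 genes and 0 of 18193 genes for the response of Elk/Sap KO, Elk KO or Sap KO minus that of wild-type, and counts among the 6 at an unadjusted p under 0.05 were 2, 0 and 1, beside 5.40%, 0.907% and 0.786% of all genes. For Ccl4 the response differed from wild-type by -0.40 in Elk/Sap KO cells (interval -0.96 to 0.15), by -0.41 in Elk KO cells (-0.96 to 0.15) and by 0.19 in Sap KO cells (-0.37 to 0.74). For Tnf the differences were -0.79 (-1.46 to -0.11), -0.45 (-1.13 to 0.23) and -0.25 (-0.92 to 0.43) in the same order of genotypes. The first of these was -0.48 when untreated Elk/Sap KO mouse 2 was left out. These intervals include differences as large as the smaller responses, so alike responses were not shown.

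The knockouts were also compared with each other, a step added after the data had been seen. In stimulated Sap KO against Elk KO cells 2 of the 6 genes were called, with 0.275% of all genes called. Ccl3 was higher by 1.54 ± 0.20 (adjusted p = 0.0003) and Ccl4 by 0.96 ± 0.19 (adjusted p = 0.0263, 1.95-fold). In stimulated Elk/Sap KO against Sap KO cells 1 of the 6 was called, with 2.6% of all genes called, and it was Ccl4, lower by a log2 difference of -0.84 ± 0.19 (adjusted p = 0.0244). Stimulated Elk/Sap KO against Elk KO cells gave 0 calls among the 6 by limma (0.044% of all genes called), and 1 at an unadjusted p under 0.05 (7.49% of all genes), Ccl3 at 0.91 ± 0.20 (adjusted p = 0.142, and 0.0365 without stimulated Sap KO mouse 2). Both Ccl4 calls ended with the dap class in the fit (adjusted p = 0.18 for Sap KO against Elk KO and 0.164 for Elk/Sap KO against Sap KO). They also ended, for Sap KO against Elk KO, when any 1 of the 6 stimulated arrays was left out (adjusted p = 0.0509 to 0.198), and for Elk/Sap KO against Sap KO without Elk/Sap KO mouse 1 or 2 or Sap KO mouse 1 or 3 (adjusted p = 0.0732 to 0.181).

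Arrays were also grouped by whether the mice had Sap, another added comparison, of 6 arrays with 6 in each state. In stimulated cells Ccl3 read 4.22, with a median of 4.62, up to 5.59 in the 6 arrays lacking Sap, against 3.34, with a median of 3.67, up to 4.18 in the 6 with Sap. The ranges did not overlap, which 0.319% of all genes also showed in either direction. The difference was 1.03 ± 0.14 (SE, adjusted p = 0.000612), and Ccl3 was the 1 gene called of the 6, with 0.11% of all genes called. It was called in all 30 alternative fits that kept it among the genes tested (adjusted p at most 0.00403), and the filter on genes above the Xist maximum removes it. Within the arrays of the high dap class the values were 4.22 to 5.59 in the 4 lacking Sap and 3.34 to 3.71 in the 4 with Sap.

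In untreated cells the same grouping gave a Ccl3 difference of 0.02 ± 0.14. By limma 0 of the 6 genes were called (0.126% of all genes called), and 0 passed at an unadjusted p under 0.05 (7.67% of all genes). The difference between the Ccl3 responses was 1.01 ± 0.20 and was not called (adjusted p = 0.342, 0 of 18193 genes called). Neighbouring Ccl4 did not share the pattern in stimulated cells, at 0.23 ± 0.13 (adjusted p = 0.877), nor did Tnf at -0.11 ± 0.16.

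Grouped by Elk, stimulated Ccl4 read 6.00, with a median of 6.44, up to 6.59 in the 6 arrays lacking Elk, against 6.70, with a median of 7.18, up to 7.36 in the 6 with Elk. These ranges did not overlap, as for 4.79% of all genes in either direction. The difference was -0.73 ± 0.13 (adjusted p = 0.00293), the level lacking Elk being 1.66-fold lower. Ccl3 read 3.34, with a median of 3.97, up to 4.67 lacking Elk, against 3.63, with a median of 4.38, up to 5.59 with Elk. The ranges overlapped and the difference was called, at -0.51 ± 0.14 (adjusted p = 0.0297), which made 2 of the 6 genes against 7.66% of all genes called. Tnf differed by -0.48 ± 0.16 (adjusted p = 0.0754), Lta differed by -0.28 ± 0.12 (adjusted p = 0.179), and Xcl1 and Il2 by -0.16 and -0.08.

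All arrays lacking Elk were in the high dap class and had higher Actb 3′ minus 5′ values than every array with Elk, so Elk status and these measures can be told apart only in part. With the dap class in the fit the differences were -0.65 for Ccl4 (adjusted p = 0.0869) and -0.69 for Ccl3 (adjusted p = 0.0657), and neither was called. Among arrays of the high dap class, stimulated Ccl4 was 6.00 to 6.59 in the 6 lacking Elk and 6.70 to 7.04 in the 2 with Elk. The part of RNA quality in the difference was not tested. The Ccl3 call also ended without stimulated wild-type mouse 2, Sap KO mouse 2, Elk KO mouse 1 or 3, or Elk/Sap KO mouse 1 (adjusted p = 0.0642 to 0.0906). Tnf was called when stimulated wild-type mouse 3 (adjusted p = 0.0307) or untreated Elk/Sap KO mouse 2 or 3 (adjusted p = 0.0185 and 0.0486) was left out. Without untreated Elk/Sap KO mouse 2, calls over all genes rose from 1393 to 2565. In untreated cells by Elk status 0 of the 6 were called by limma (5.19% of all genes called), and 0 passed at an unadjusted p under 0.05 (19.6% of all genes). The untreated Ccl4 difference was -0.23 ± 0.13. Untreated Il2 was called without untreated Elk/Sap KO mouse 3 (0.31, adjusted p = 0.0483), where calls over all genes rose from 945 to 2582. The response by Elk status gave 0 calls among the 6 and among all genes, and 4 of the 6 at an unadjusted p under 0.05 (1.65% of all genes), all with smaller responses in cells lacking Elk.

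**Figure D3:**
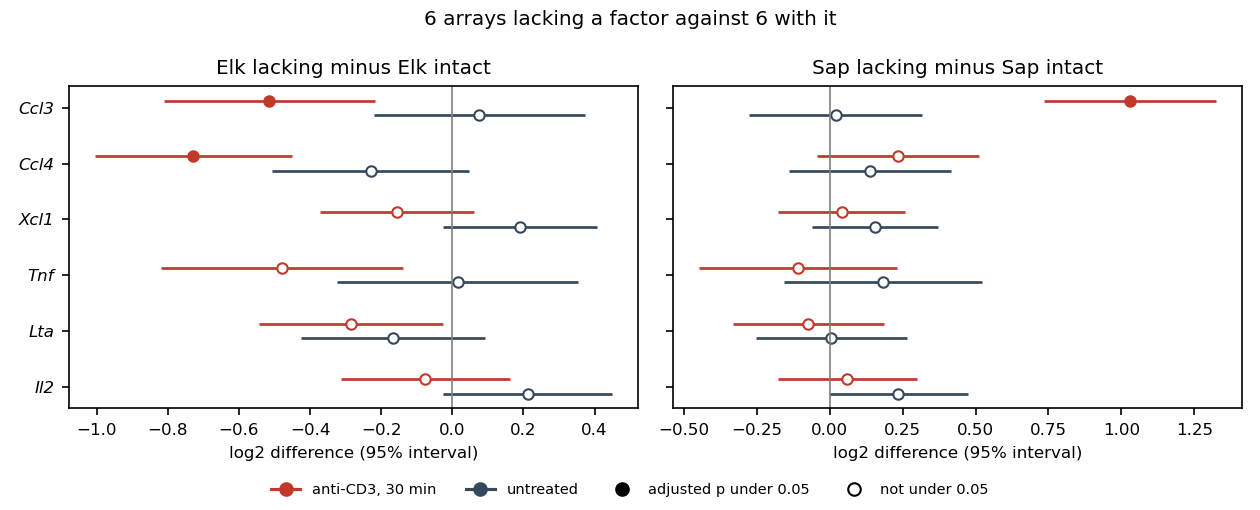
Log2 difference (horizontal axis) with its 95% interval for the 6 genes, in mice lacking Elk minus mice with it (left) and lacking Sap minus mice with it (right), each 6 arrays against 6; red is stimulated and dark blue untreated, and filled symbols have an adjusted p under 0.05. Filled symbols are stimulated Ccl3 and Ccl4 by Elk, at -0.51 and -0.73, and stimulated Ccl3 by Sap at 1.03, and no untreated difference is filled.

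Ordered by group mean, stimulated Ccl3 ran from Sap KO (5.02 ± 0.52, SD, n = 3) over Elk/Sap KO (4.39 ± 0.25) and wild-type (3.87 ± 0.28) to Elk KO (3.47 ± 0.20). The first 2 of these groups overlapped, and so did the Elk KO and wild-type groups. Stimulated Ccl4 ran from Sap KO (7.25 ± 0.18) over wild-type (6.91 ± 0.34), Elk/Sap KO (6.42 ± 0.26) and Elk KO (6.29 ± 0.26), with overlap between the first 2 and between the last 2. Stimulated Tnf was highest in wild-type (6.90 ± 0.41), then Sap KO (6.62 ± 0.16), Elk/Sap KO (6.31 ± 0.17) and Elk KO (6.25 ± 0.20). Wild-type values overlapped those of every other genotype, and Elk/Sap KO values those of Elk KO. The untreated means of the 4 genotypes spanned 3.42 to 3.55 for Ccl3, 4.93 to 5.29 for Ccl4 and 5.66 to 6.06 for Tnf, and neighbours in these orders overlapped.

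The neighbouring genes can be set beside each other over the same arrays. Over 24 arrays, which share mice and treatment groups, Pearson's r between Ccl3 and Ccl4 was 0.723, and within groups, after group means were removed, it was 0.159. For Tnf and Lta it was 0.355 over all arrays and 0.570 within groups. Both genes had their widest spread in untreated Elk/Sap KO cells, with SDs of 0.54 for Tnf and 0.49 for Lta. There the outlying array of mouse 2 read 6.67 and 4.99. Correlations without that array were not computed. Ccl4 and Tnf, on different chromosomes, had r = 0.830 over all arrays and 0.633 within groups.

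Genes with the signal pattern most like that of Ccl4 over the 24 arrays, among 10752 candidates above the background range, were Ier2 (r = 0.953), Dusp5 (r = 0.950) and Nfkbid (r = 0.949). Ier2 is an immediate early gene, Dusp5 encodes a nuclear phosphatase of ERK and Nfkbid an atypical IκB protein. Their mean responses were 3.23 for Ier2, 2.61 for Dusp5 and 3.60 for Nfkbid. For Tnf the closest were Trib1 (r = 0.898), Bcl10 (r = 0.888) and Ccnl1 (r = 0.875), with mean responses of 1.74, 0.29 and 0.50. Bcl10 encodes an adaptor between the antigen receptor and NF-κB, and Trib1 a pseudokinase. Ccl3, Xcl1, Lta and Il2 had no group mean above the background range and were not compared in this way.

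Receptors of the 6 products were listed as 12 genes, of which 10 had a probe set of their own. In the mean response 1 rose and none fell, and it was Tnfrsf1b, which encodes TNFR2. Its group means were 7.24 in stimulated against 6.50 in untreated Elk/Sap KO cells, 7.45 against 7.03 in Elk KO cells, 7.84 against 6.75 in Sap KO cells and 7.63 against 6.80 in wild-type cells. The Tnfrsf1b mean response was 0.77 ± 0.09 (adjusted p = 9.53e-06), and the response was called in Sap KO (1.09, adjusted p = 0.00299) and wild-type cells (0.83, adjusted p = 0.0487). Tnfrsf1a, which encodes TNFR1, read 9.13 to 9.62 as group means, with a mean response of 0.01.

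None of 30 other chemokine genes, 23 other lymphocyte cytokine genes and 11 other TNF superfamily ligand genes was called in the mean response. Their median responses were 0.01, 0.01 and 0.10, beside 0.007 over all genes. Group means of 19 of the chemokine genes, 18 of the cytokine genes and 6 of the ligand genes stayed within the background range. A few of them were called between genotypes. Ltb, which encodes lymphotoxin β and is the partner of the Lta product in the membrane-bound lymphotoxin, had stimulated group means of 9.81 in Elk/Sap KO and 9.77 in Elk KO cells, against 10.89 in wild-type cells. These Ltb differences were -1.09 ± 0.23 (adjusted p = 0.00977) and -1.12 ± 0.23 (adjusted p = 0.0395). In stimulated Elk/Sap KO cells against wild-type, Tgfb1, an inhibitory cytokine, was lower by a log2 difference of -1.21 (adjusted p = 0.0201), the chemokine Ccl27a by -0.67 (adjusted p = 0.0435), and the B cell chemokine Cxcl13 was higher by 0.43 (adjusted p = 0.0384). Ccl25, a chemokine made by thymic stroma, was lower in untreated Elk/Sap KO cells by a log2 difference of -0.64 (adjusted p = 0.0212). Every array lacking Elk was in the high dap class, which limits these differences. With that class in the fit, calls over all genes in stimulated Elk/Sap KO against wild-type fell from 1242 to 170. Those in stimulated Elk KO against wild-type fell from 40 to 11. The part of dap class and RNA quality was not tested for the single genes named here.

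Of 22 measured transcription factors that act on cytokine genes, 9 rose in the mean response and none fell, while 1.02% of all genes rose. By adjusted p the first 4 were Egr1 (6.43 ± 0.13), Egr2 (6.16), Nr4a1 (5.15) and Junb (2.23), all called in each genotype. In stimulated Elk/Sap KO cells 7 of the 22 were called lower than in wild-type cells and none higher. Over all genes 5.43% were called lower and 1.4% higher. The 7 were Egr2 (-2.15), Fosb (-1.93), Junb (-1.47), Egr1 (-1.15), Rela (-0.79), Egr3 (-0.73) and Elk4 itself. Of 6 genes whose products act in decay of cytokine mRNA, 3 rose in the mean response and none fell. Zfp36, which encodes tristetraprolin, a protein that speeds the decay of Tnf mRNA, had a response of 2.19 ± 0.09 (adjusted p = 5.38e-14), Zfp36l1 of 1.19 and Zfp36l2 of 0.50. Zfp36l2 was lower in untreated Elk/Sap KO than in wild-type cells, by a log2 difference of -0.59 (adjusted p = 0.0372). Stimulated Zfp36 was lower in Elk/Sap KO than in wild-type cells, at group means of 10.29 and 11.28 (adjusted p = 0.00347). For the transcription factors and mRNA decay genes too, the part of dap class and RNA quality in the Elk/Sap KO differences was not tested.

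**Figure D4:**
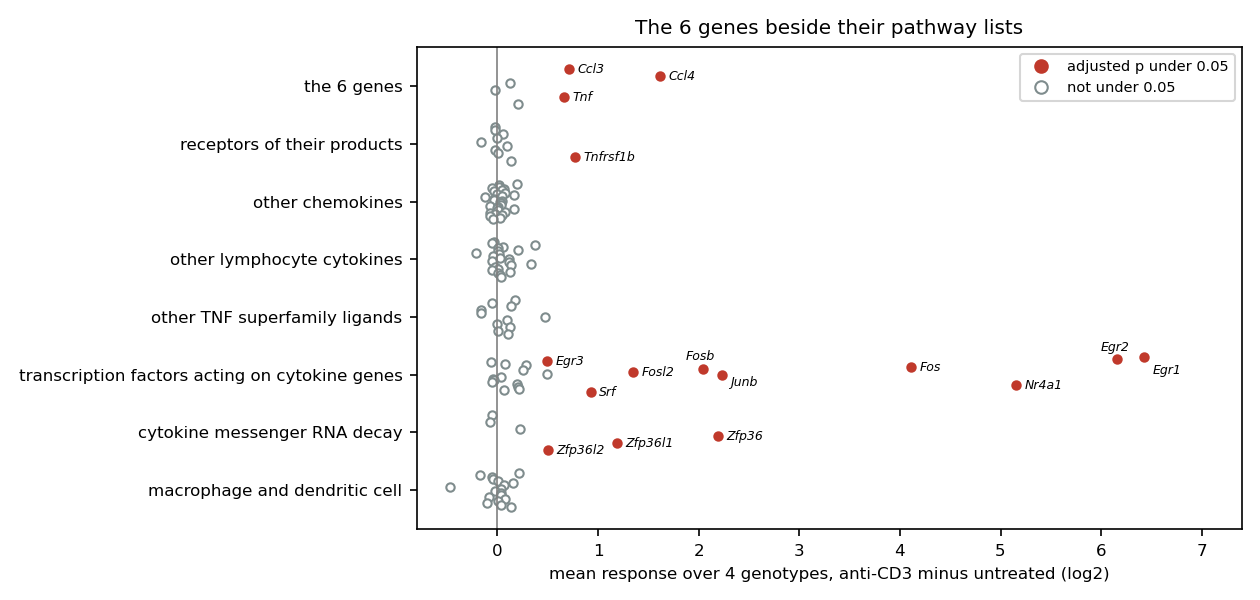
Mean response over the 4 genotypes on the log2 scale (horizontal axis) for the 6 genes and each measured gene of 7 lists (rows); each point is a gene, red points have an adjusted p under 0.05 and carry their names. Red points occur among the 6 genes, the receptors, the transcription factors and the mRNA decay genes, and none among the other chemokine, cytokine and TNF family lists or the macrophage and dendritic cell list.

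Sorted cells may hold others that make these cytokines, and in bulk RNA fewer cells of a type and less RNA per cell cannot be told apart. All 12 measured DP thymocyte markers were above the background range, with a mean of 11.06 to 11.67 over the list in the 24 arrays. That mean was lower in stimulated Elk/Sap KO (11.06 to 11.31) than in stimulated wild-type cells (11.39 to 11.51). Between these groups Cd4 (-0.90) and Cd3e (-0.94) were called lower in Elk/Sap KO, 2 of the 12, beside 5.43% of all genes. In untreated Elk/Sap KO against wild-type cells 3 of the 12 were called lower, Cd8a (-0.52), Cd3e (-0.76) and Cd3g (-0.48), beside 2.69% of all genes. Of 18 macrophage and dendritic cell markers 8 had a group mean above the background range, namely Lyz2, Csf1r, Fcgr1, Mpeg1, Ctss, Siglech, Flt3 and Vcam1. Within it in every group were Cd14, Cd68, Adgre1, Itgam, Itgax, Xcr1, Mrc1 and the 3 C1q genes. The mean of that list was 4.51 to 4.70 in stimulated Sap KO cells and 4.49 to 4.66 in stimulated wild-type cells, and none of its genes was called in any response. Its single genes differed between these 2 groups by -0.16 to 0.46, with none called. Of these markers Mpeg1 was higher in stimulated Elk/Sap KO than in wild-type cells (5.56 and 4.83, adjusted p = 0.0257), where 1.4% of all genes were called higher. NK and innate-like T cell markers, of which 4 of 12 were above the background range, had list means of 4.64 to 4.77 in stimulated Sap KO cells and 4.60 to 4.66 in stimulated wild-type cells. These means were 4.66 to 4.86 in stimulated Elk/Sap KO and 4.48 to 4.71 in stimulated Elk KO cells. In untreated Sap KO cells they were 4.679 to 4.907, all above the 4.637 to 4.678 of untreated wild-type cells. Untreated Elk/Sap KO cells read 4.53 to 5.06 and untreated Elk KO cells 4.43 to 4.63. Of 8 B cell markers 4 were above the background range, namely Cd79a, Cd79b, Cd22 and Ighm, while Ms4a1, Pax5, Ebf1 and Blk were within it. The B cell list means were higher in stimulated Sap KO cells (5.80 to 6.18) than in stimulated wild-type cells (5.62 to 5.75). They were 5.57 to 5.98 in stimulated Elk/Sap KO and 5.45 to 5.83 in stimulated Elk KO cells. Mature single-positive T cell markers, 6 of 7 above the background range, read 5.93 to 6.37 in stimulated Elk/Sap KO, 6.37 to 7.02 in Elk KO, 6.37 to 6.63 in Sap KO and 6.41 to 6.53 in wild-type cells. In stimulated Elk/Sap KO against wild-type cells 1 of these 7 was called higher and 1 lower (1.4% and 5.43% of all genes). In untreated Elk/Sap KO against wild-type cells 3 were called lower (2.69% of all genes). The part of these cells in the Ccl3, Ccl4 and Tnf results was not tested. Nor was the part of dap class and RNA quality in the marker differences between Elk/Sap KO and wild-type cells.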

How the data were processed

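Values were the log2 signals that the authors deposited, made by RMA with the affy package per the submitters' processing notes; that method subtracts background, brings the arrays to one distribution and condenses probes into probe sets, so arrays can be compared and small differences near background are compressed. For tool versions and genome build, the sources used here give none. Of 45101 probe sets, 64 controls were left out, 34945 listed 1 symbol, 932 several and 9160 none; a gene was represented by its single-symbol probe set with the highest mean, which gave 18193 genes. Value columns that belonged to no sample numbered 0. The number of arrays limits the precision.

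limma 3.58.1 (R 4.3.3) was fitted to all 24 arrays with 8 group means and 16 residual degrees of freedom, followed by eBayes, Benjamini-Hochberg adjustment over all genes within each contrast and a threshold of 0.05; intervals are 95%. The step was tested on simulated data. The labels' mouse numbers pair the stimulated and untreated arrays of an animal; the deviations of the 12 pairs from their group means correlated at r = -0.0041 to 0.823, with 10 of 12 above 0.1 and 8 of 12 highest with their own partner. Elk KO mice 1 and 2 correlated at 0.0719 and 0.173 as numbered and at up to 0.664 and 0.591 with another array of their genotype, which bears on their changes within mice. The fit with the mouse as a block was an alternative. Alternatives also covered array weights, centring, filters, probe set choice, an intensity trend, the dap class, fewer groups in the fit and each array left out. Comparisons between knockouts and by Elk or Sap status were added after seeing the data.

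The 6 genes and the lists were chosen with earlier results of these data known. Named beside the 6 are the 3 genes most correlated with any of them above the Xist maximum, up to 4 genes of each list called in the mean response, by adjusted p, any gene of the pathway lists called in a knockout comparison, and the check genes; Tnfrsf1a and marker genes outside this rule were named for their roles, after their values were seen. A fold is a lower bound where 1 of the means lay within the Xist range, and none is given where both did. Promoter windows came from RefSeq (GRCm38.p6). Plots used Python 3.11.15 and matplotlib 3.10.9.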

Additional observations from a re-analysis of the deposited data

How the results depend on the processing

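The mean responses of Ccl4, Ccl3 and Tnf, the Ccl4 responses of Elk KO, Sap KO and wild-type cells and the Ccl3 response of Sap KO cells kept their direction and their calls in every alternative that tested them. Over 156 results of the 6 genes and 4924 alternative values, 4861 stayed on the same side of the threshold, 25 lost a call, 38 gained one and 0 reversed; 88 sign changes occurred between values that were not called. With array quality weights the number of the 6 genes called was 2, 2 and 2 for the Elk/Sap KO, Elk KO and wild-type responses, 1 in untreated Elk/Sap KO against wild-type, 3 in stimulated Elk/Sap KO and 1 in stimulated Elk KO against wild-type. Of all 18193 genes that setting called 696, 186 and 142 for these responses, and 5860, 3955 and 931 in these comparisons with wild-type. The same weights gave 3 calls in the Sap KO response (Tnf added), 4 in the mean response, 4 in stimulated and 2 in untreated cells by Elk status, 2 each for stimulated Elk/Sap KO against Elk KO and Sap KO, and 1 for the response of Sap KO minus Elk KO (Ccl3). In the same order they called 229, 1091, 4881, 5743, 2049, 4548 and 2 of all genes. Where a large part of all genes was called, the counts among the 6 do not single them out. The wild-type response had 2 calls, Ccl4 and Tnf, with the replicate block of mice, with that block and the Elk KO numbers 1 and 2 exchanged (chosen after seeing the data, because these arrays correlated better crossed), with arrays centred on their medians and with only genes above the Xist maximum. That filter left 1 call in the Sap KO response and 0 in stimulated Sap KO against wild-type, since it removes Ccl3. With only the groups compared in the fit, 0 were called for the Elk/Sap KO response and 0 for stimulated Sap KO against wild-type. The same setting added limma calls of Tnf in the Sap KO response (adjusted p = 0.0277) and of Lta in stimulated Elk/Sap KO against Sap KO (adjusted p = 0.0499). Leaving out each array in turn gave 1 to 2 calls for the Elk/Sap KO and wild-type responses, 0 to 2 for untreated Elk/Sap KO, 0 to 1 for stimulated Elk/Sap KO and 0 to 1 for stimulated Sap KO against wild-type. Over all genes it gave 36 to 216, 35 to 100, 64 to 4927, 169 to 2344 and 8 to 27 calls in the same order. The block of mice changed no other call among the 6 genes. Apart from the filter, the cause of the changes was not tested. Over all genes the mean response had 264 calls, with 233 to 1091 across the other settings and 216 to 493 with an array left out; stimulated Elk/Sap KO against wild-type had 1242, with 170 to 3955 and 169 to 2344. Background signal limits Ccl3, Xcl1, Lta and Il2, and 3 arrays a group limit the tests of response differences.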
